A study of Homo sapiens with 3 samples.

Results

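A group of 40 genes of glucose breakdown and of the response to low oxygen was followed in DU145, a human prostate cancer cell line, after knockdown of TSPAN18, a tetraspanin membrane protein. The members were taken by gene symbol from a list drawn up with earlier results of these data known: 24 genes of glycolysis with its transport and lactate steps, and 16 genes of the hypoxia-inducible factor (HIF) system and its targets. In all, 39 of the 40 were listed in all 3 libraries, among 22773 genes listed in all of them. CA9, a carbonic anhydrase widely used as a hypoxia marker, was not listed in all 3 tables and has no values here.

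RNA was taken 48 h after transfection with 75 nM siRNA. A negative control siRNA, TSPAN18 siRNA 1 and TSPAN18 siRNA 2 gave 1 library each, and cells of all 3 were grown alike in serum-containing medium with no oxygen treatment named in the labels. Nothing in the labels gives a second culture for any siRNA, so intervals here cover counting error only, and both siRNAs were compared with the same control library. In bulk RNA, fewer cells that express a gene and less RNA per cell cannot be told apart.

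Glycolysis splits glucose into pyruvate in the cytosol and yields ATP without oxygen. Hexokinases trap glucose in the cell, phosphofructokinase commits it to the pathway, and lactate dehydrogenase turns pyruvate into lactate, which monocarboxylate transporters carry out. Under low oxygen, the HIF alpha subunits HIF-1α (gene HIF1A) and HIF-2α (EPAS1) escape hydroxylation by the EGLN enzymes and degradation through VHL, pair with ARNT and bind ACGTG-containing elements in many glycolytic and other genes. Cancer cells often run glycolysis at a high rate even with oxygen present.

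The libraries held 29766559 to 30058731 read pairs. TSPAN18 itself was at 16.9 CPM (reads scaled to a common library total) in control cells, 1.37 with siRNA 1 and 1.51 with siRNA 2, which is 8.09% (95% counting interval 5.74 to 11.1) and 8.93% (6.43 to 12.1) of control. The epithelial keratins KRT8 (384 to 464 CPM) and KRT18 (140 to 175 CPM) were well above EPCAM (8.59 to 13.7 CPM) and CDH1 (5.54 to 12.2 CPM). KLK3, a marker of secretory prostate cells, was not listed in all 3 tables, and the endothelial markers PECAM1, CDH5 and VWF were under 1 CPM. The fibroblast gene COL1A1 was at 7.25 CPM in control cells, 3.18 with siRNA 1 and 5.98 with siRNA 2 and COL3A1 at 0.399 to 0.702 CPM, while DCN and LUM, like the blood cell markers PTPRC, CD68 and CD3E, were not listed in all 3 tables. CDH1 was highest with siRNA 1, at 213% of control, and COL1A1 and EPCAM were lowest there, at 43.8% and 62.5% of control. The part of these markers in the results below was not tested.

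The promoters of 3 members are printed because LDHA and PGK1 are textbook HIF targets, HK2 is one of the members lower with both siRNAs, and all carry the letters ACGTG, a core that HIF binds. They come from RefSeq (GRCh38.p14), run 5′ to 3′ on the gene's strand from 250 bases before to 50 bases after an annotated start, and have ACGTG on either strand (CACGT when it lies on the other strand) in capitals. CACGTG holds both.
LDHA promoter, chr11:18394313-18394612, plus strand: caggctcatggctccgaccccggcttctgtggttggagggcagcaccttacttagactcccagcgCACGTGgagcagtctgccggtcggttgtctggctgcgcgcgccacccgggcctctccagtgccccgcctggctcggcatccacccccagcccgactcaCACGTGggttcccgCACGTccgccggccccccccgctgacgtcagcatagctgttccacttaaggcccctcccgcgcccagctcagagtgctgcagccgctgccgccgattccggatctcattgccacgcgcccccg
HK2 promoter, chr2:74834920-74835219, plus strand: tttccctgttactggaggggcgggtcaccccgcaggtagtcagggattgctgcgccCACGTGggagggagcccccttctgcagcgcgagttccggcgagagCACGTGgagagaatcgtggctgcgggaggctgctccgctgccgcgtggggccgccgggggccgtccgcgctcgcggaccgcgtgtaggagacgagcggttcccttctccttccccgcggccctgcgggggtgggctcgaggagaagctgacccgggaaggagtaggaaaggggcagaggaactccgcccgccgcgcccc
PGK1 promoter, chrX:78103998-78104297, plus strand: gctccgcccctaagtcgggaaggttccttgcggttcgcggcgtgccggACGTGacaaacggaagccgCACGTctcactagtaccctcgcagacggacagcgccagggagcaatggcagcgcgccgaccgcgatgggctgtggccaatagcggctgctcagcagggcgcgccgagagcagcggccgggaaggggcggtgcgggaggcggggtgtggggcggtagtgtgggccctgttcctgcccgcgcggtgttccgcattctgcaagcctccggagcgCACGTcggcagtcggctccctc
In the printed windows, LDHA had 3 places with these letters, of which 2 read CACGTG, at 185 and 87 bases before the start. HK2 had 2, both CACGTG, at 194 and 149 bases before its start, and PGK1 had 3. A second LDHA window, chr11:18396101-18396400, had 0. Promoter windows were matched for 34 of the 39 listed members. ACGTG was in at least 1 window of 19 of them (55.9%), against 32.5% of 10002 genes tested that had a window. Counted by window, it was in 23 of 64 (35.9%) against 25.2%. The related letters GCGTG were in 22 of 34 members (64.7%) against 59.1%, but in fewer of their windows, 28 of 64 (43.8%) against 48.9%. Members are known HIF targets in many cases, so this describes the list. The median log2 difference from control of the 18 tested members with ACGTG was -0.17 with siRNA 1 and -0.20 with siRNA 2, and that of the 15 without it -0.12 and -0.11. A match is not a bound site.

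Levels were also taken as CPM per kilobase of exon, with the exons of all annotated transcripts of a gene merged. This length can exceed that of the RNA present, so the order and folds between genes are rough. In the control library members ran from GAPDH (618 CPM per kb), ENO1 (483), PKM (449) and ALDOA (353) to ANKRD37 (0.258) and SLC2A3 (0.0324). GAPDH and ENO1 ranked first and second in all 3 libraries. PKM held rank 3 in the control and with siRNA 1, and rank 4, behind ALDOA, with siRNA 2. The HIF1A level per kb (68.0) was 3.61-fold that of EPAS1, and HK1 was 14.9-fold HK2. Together the 15 glycolytic enzymes took 1.22%, 1.13% and 1.01% of reads in the control, siRNA 1 and siRNA 2 libraries. The enzymes' summed reads were thus 92.5% and 82.5% of control, lowest with siRNA 2. Members with the most reads weigh most in this sum, so it does not describe the 15 enzymes evenly. PKM, with the most reads, carried much of the fall with siRNA 2. It was at 449, 414 and 298 CPM per kb in the control, siRNA 1 and siRNA 2 libraries. The median log2 difference of the 15 enzymes was -0.15 with siRNA 1 and -0.20 with siRNA 2.

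**Figure D1:**
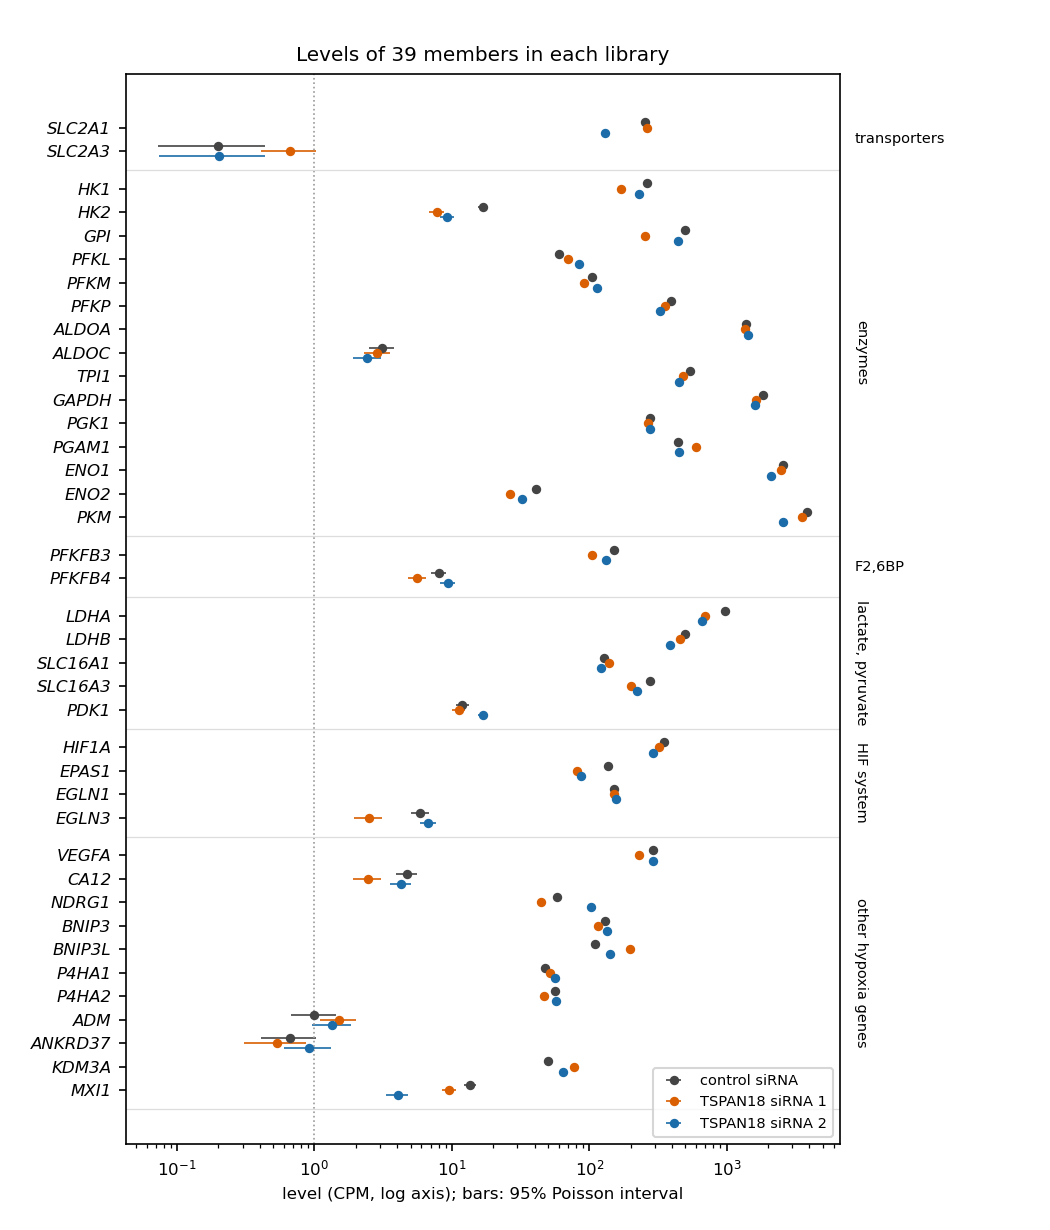
Level of each of the 39 listed members in the 3 libraries, in CPM on a log axis, with 95% Poisson intervals of the counts and the dotted line at 1 CPM. Members span from 0.200 CPM (SLC2A3) to 3849 CPM (PKM) in the control, and for most members the 3 points lie close together on this scale.

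Differences were taken on the log2(CPM + 1) scale, which understates low genes, and a gene was counted when it lay at least 1.5-fold from control. Where 3 levels of a gene follow each other, they are those of the control, siRNA 1 and siRNA 2, in that order. Among 37 members with a mean of at least 1 CPM, 7 were that much lower with siRNA 1, against 15.1% of the 14185 genes tested, and 2 were higher, against 4.43%. With siRNA 2, 5 were lower, against 6.61% of all genes, and 1 was higher, against 6.34%. Only HK2 and EPAS1, 2 of 37, were lower by the rule with both siRNAs, against 3.46% of all genes, and no member was higher with both, against 1.96%. These shares are 18.9% and 5.41% of members for siRNA 1, 13.5% and 2.70% for siRNA 2, and 5.41% for lower with both. The widest gap to the background was that for lower with siRNA 2, where it rests on 5 members.

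Limma across all genes, with both siTSPAN18 libraries against the control and Benjamini-Hochberg adjustment, called 0 of 14185 genes (0%) and 0 members. At an unadjusted p under 0.05 limma had 691 genes, or 4.87% of those tested, and among them 2 of the 37 members. These were HK2 and EPAS1, both lower in both siRNA libraries, and limma with Benjamini-Hochberg adjustment gave each an adjusted p of 0.992. The edgeR quasi-likelihood test on recovered read pairs called 0 genes and had 770 (5.43%) at an unadjusted p under 0.05. DESeq2 called 14, no member among them. With 1 control library, the spread in these tests comes from the siRNA pair alone.

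**Figure D2:**
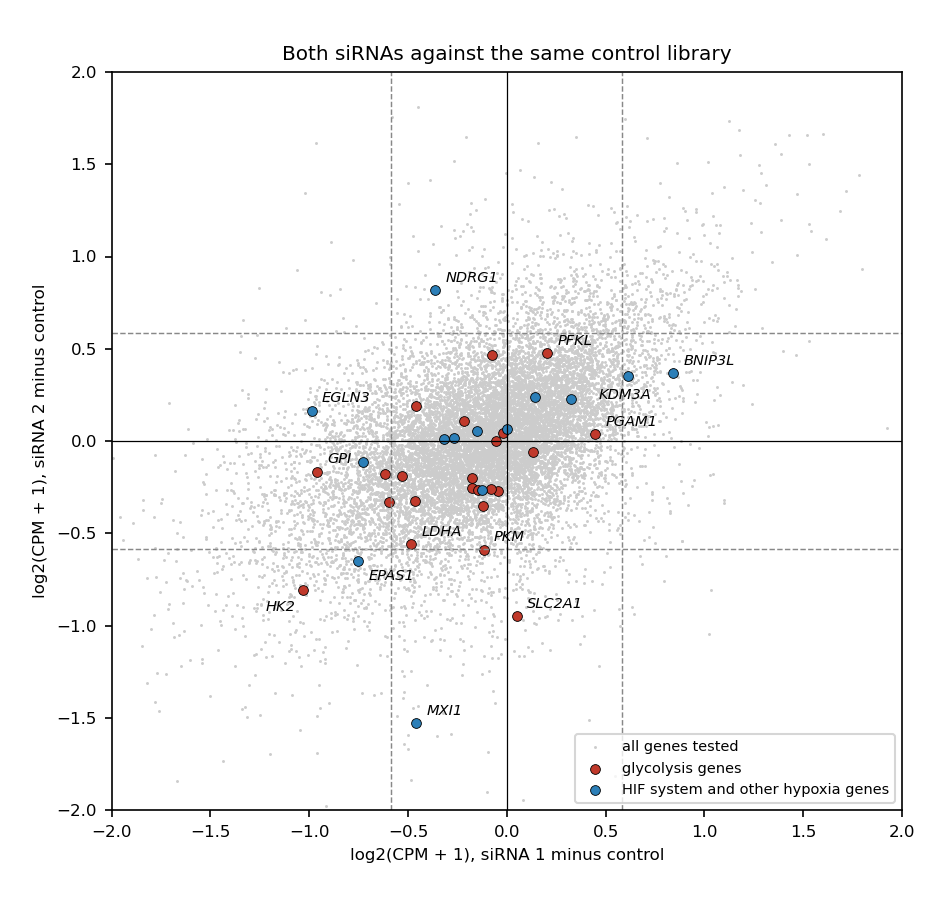
Difference from control on the log2(CPM + 1) scale with siRNA 1 (x axis) and siRNA 2 (y axis); grey points are the 14185 genes tested, coloured points the 37 members, and dashed lines mark 1.5-fold. Both axes share the control library, which by itself draws points along the diagonal; HK2 and EPAS1 are the only members past both lines, while SLC2A1, MXI1 and NDRG1 are far out with siRNA 2 and GPI and EGLN3 with siRNA 1.

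The glucose transporter SLC2A1 (GLUT1), the main glucose importer of many cells, was at 253 CPM in control cells, 262 with siRNA 1 and 130 with siRNA 2. It was low with siRNA 2 alone: the log2 difference was 0.05 with siRNA 1 and -0.95 with siRNA 2, or 51.6% of control (49.6 to 53.6). SLC2A3 (GLUT3), a high-affinity importer best known from neurons, was at 0.200, 0.669 and 0.202 CPM, too low to test.

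Of the hexokinases, which phosphorylate glucose, HK2 is the form most often raised in tumours. Its level was 16.9 CPM in control cells, 7.76 with siRNA 1 and 9.24 with siRNA 2. Both siRNA libraries were below the control, at 45.9% (39.1 to 53.7) and 54.7% (47.0 to 63.4) of it, or -1.03 and -0.81 on the log2 scale. HK1, the housekeeping form, was at 262, 170 and 231 CPM. HK1 was thus past the rule with siRNA 1 (log2 difference -0.62) and short of it with siRNA 2 (-0.18). It was short of the rule with siRNA 1 too under median-of-ratios scaling (-0.50) and with the GC trend removed (-0.42). Within a library, HK1 had 15.5 (14.2 to 17.0) read pairs for each of HK2 in control cells, 21.9 (19.2 to 25.1) with siRNA 1 and 25.02 (22.2 to 28.3) with siRNA 2. Such a ratio within a library does not depend on how libraries are scaled, and both siRNA intervals lie above that of the control.

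GPI, which converts glucose-6-phosphate to fructose-6-phosphate, was at 494 CPM in control cells, 254 with siRNA 1 and 440 with siRNA 2. It was low with siRNA 1 (51.4% of control, 49.9 to 52.8) and at 89.1% with siRNA 2. The phosphofructokinase subunits differed among themselves. PFKP, the platelet form and the highest here, was at 391, 354 and 325 CPM, PFKL, the liver form, at 60.2, 69.5 and 84.1 CPM, and PFKM, the muscle form, at 105, 90.7 and 114 CPM. PFKP was lowest and PFKL highest with siRNA 2, and their read ratio was 6.5 in control cells, 5.09 with siRNA 1 and 3.87 with siRNA 2. None of the 3 passed the 1.5-fold rule.

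From aldolase to enolase most enzymes lay inside the 1.5-fold rule. ALDOA, the main aldolase, was at 1380, 1360 and 1423 CPM, and its counts may mix with those of AC093512.1 and AC093512.2, which cover 53.5% of its exonic length. ALDOC, the brain form, was at 3.09, 2.87 and 2.42 CPM, with 10.1% of its length shared with AC005726.4. TPI1, triosephosphate isomerase, was at 540, 478 and 452 CPM and GAPDH, the glyceraldehyde-3-phosphate dehydrogenase often used as a reference gene, at 1842, 1632 and 1600 CPM. Both were 83.6% to 88.6% of control, a difference well under the rule, and GAPDH shares 14.2% of its exonic length with the antisense gene AC006064.4. PGK1, phosphoglycerate kinase, was at 275, 265 and 275 CPM or 96.4% and 99.9% of control. PGAM1, phosphoglycerate mutase, was at 440, 600 and 452 CPM. It was highest with siRNA 1, at 136% of control, and at 103% with siRNA 2. ENO1, the ubiquitous enolase, was at 2547, 2473 and 2110 CPM, and ENO2, the neuronal form, at 40.7, 26.6 and 32.1 CPM. ENO2 was past the rule with siRNA 1 (-0.60), but not under median-of-ratios scaling (-0.48), with a pseudocount of 5 (-0.53) or with the GC trend removed (-0.36). The ENO1 to ENO2 read ratio of 93.0 there stood above 62.7 in the control and 65.7 with siRNA 2.

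PKM, pyruvate kinase, had the most reads of all members: 3849 CPM in control cells, 3548 with siRNA 1 and 2557 with siRNA 2. The siRNA 2 library stood apart, at 66.4% of control (65.8 to 67.0) and -0.59 on the log2 scale, just past the rule, while siRNA 1 was at 92.2%. With the GC trend removed it was at -0.52, short of the rule. The tables give 1 value per gene, so the isoforms M1 and M2 of PKM cannot be told apart. Of the enzymes that set fructose-2,6-bisphosphate, the activator of phosphofructokinase, PFKFB3 was at 152, 105 and 133 CPM and PFKFB4 at 8.05, 5.58 and 9.31 CPM. Both were lowest with siRNA 1, at 69.1% and 69.3% of control, short of the rule.

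LDHA, the lactate dehydrogenase subunit that favours lactate formation, was at 968 CPM in control cells, 691 with siRNA 1 and 657 with siRNA 2. Both siRNA libraries were below the control, at 71.4% (70.1 to 72.7) and 67.9% (66.7 to 69.1) of it. The log2 differences of -0.49 and -0.56 fell short of 1.5-fold, and limma gave it an adjusted p of 0.992 with Benjamini-Hochberg adjustment. Under median-of-ratios scaling the LDHA differences were -0.37 and -0.57, and with the GC trend removed they were -0.47 and -0.63. The last of these, with siRNA 2, is past the rule. LDHB, the partner subunit, was at 496, 456 and 388 CPM and shares 33.4% of its exonic length with AC010197.2. The LDHA to LDHB read ratio was 1.95 (1.91 to 1.99) in control cells, 1.52 (1.48 to 1.55) with siRNA 1 and 1.69 (1.65 to 1.73) with siRNA 2, lower with both.

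SLC16A3 (MCT4), the lactate exporter of glycolytic cells, was at 278, 201 and 222 CPM, below the control in both siRNA libraries. With the GC trend removed it was at -0.085 and -0.15 on the log2 scale. SLC16A1 (MCT1), which also imports lactate, was at 127, 139 and 122 CPM. Their read ratio of 2.2 in the control was 1.44 with siRNA 1 and 1.82 with siRNA 2. The log2 differences of this ratio, -0.60 and -0.26, were -0.22 and -0.0048 with the GC trend removed. PDK1, a mitochondrial kinase that inhibits pyruvate dehydrogenase and so the conversion of pyruvate to acetyl-CoA, was at 11.9, 11.3 and 16.8 CPM, highest with siRNA 2 at 141% of control (123 to 162).

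**Figure D3:**
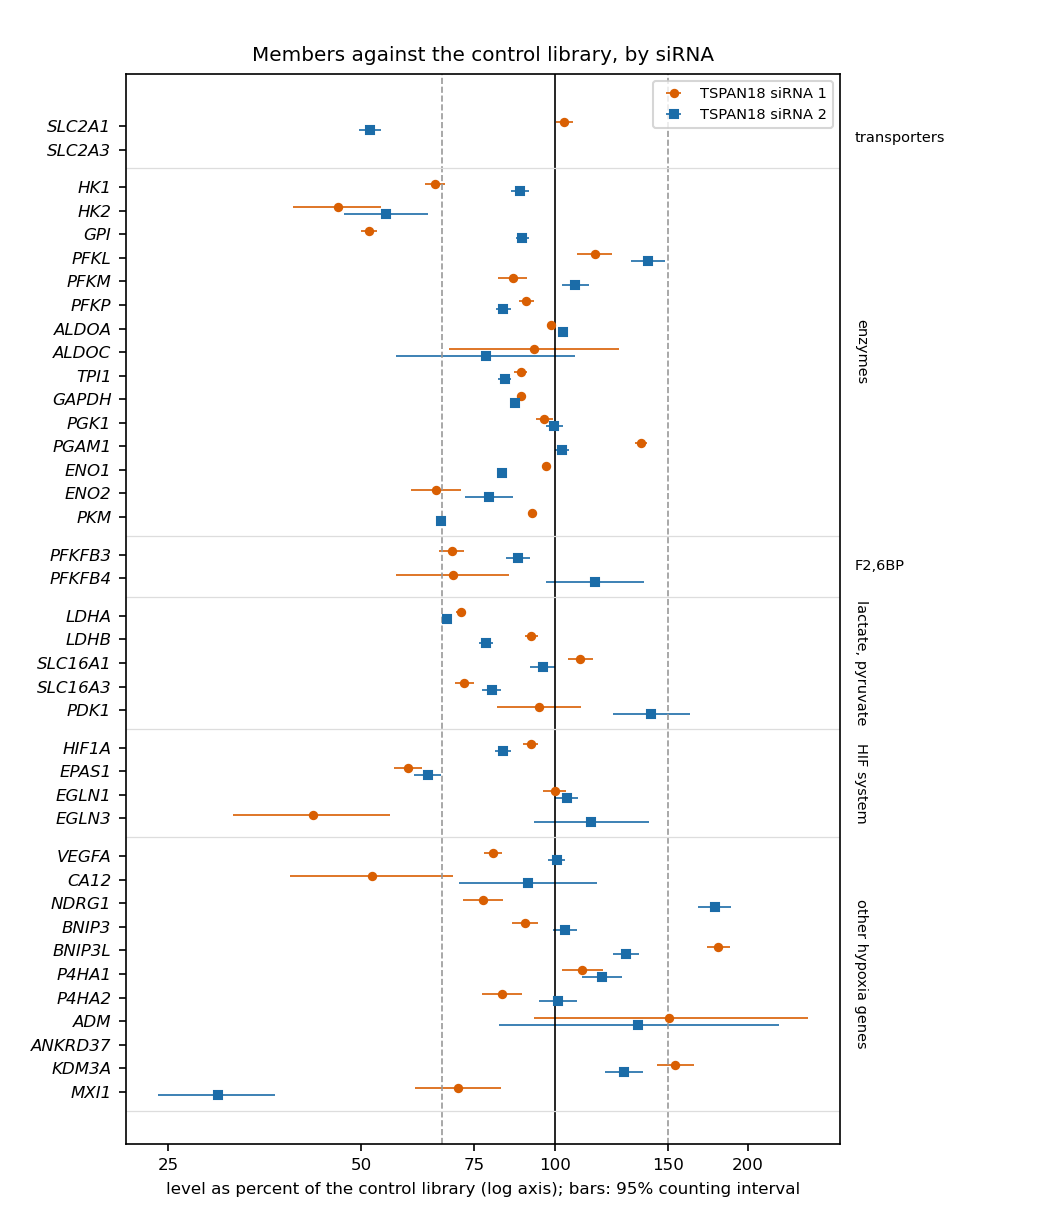
Level of each tested member as percent of the control library, on a log axis, with siRNA 1 as circles, siRNA 2 as squares, 95% counting intervals as bars and dashed lines at 1.5-fold; SLC2A3 and ANKRD37 are named but not drawn because their mean is under 1 CPM. HK2 and EPAS1 lie left of the lower line with both siRNAs; LDHA and SLC16A3 lie left of 100% with both but inside the line.

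Among the 15 glycolytic enzymes, 11 were below the control with both siRNAs and 2 (PFKL and PGAM1) above it with both, and 37.7% and 29.3% of all genes did the same. This count depends on scaling. Over all genes the siRNA 1 median was -0.10 and that for siRNA 2 was 0.01. Median-of-ratios scaling brings the former to 0.01, a shift that touches every siRNA 1 value here. Under it, 8 of the 15 enzymes were below the control with both siRNAs, against 33.4% of all genes, and ENO1, PGK1, ALDOA and ALDOC were on the positive side with siRNA 1. The count also differs with GC content. In both siRNA libraries genes rich in G and C were lower: at 55 to 60% GC the median difference was -0.26 with siRNA 1 and -0.13 with siRNA 2, and below 40% it was 0.17 and 0.21. Of the 15 enzymes, 14 have more than 50% GC, and the median GC of the glycolysis members was 53.3% against 48.3% for all genes. With the GC trend removed, a step that also recentres all genes as the scaling does, 5 of 15 enzymes were below the control with both siRNAs, against 31.6% of all genes, and GAPDH, PKM, TPI1, PFKP, ENO1, ALDOA and ALDOC turned to the positive side with siRNA 1. By the 1.5-fold rule, 3 members were then lower with siRNA 1 in place of 7, and 5 higher in place of 2. The part of GC content in the differences was not tested beyond this removal.

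The median log2 difference of the 23 tested glycolysis genes was -0.15 with siRNA 1 and -0.20 with siRNA 2 (all genes -0.10 and 0.01). The 2478 genes whose mean reached 100 CPM, a level below which 6 of the 23 (HK2, PFKL, ALDOC, ENO2, PFKFB4 and PDK1) lie, had medians of 0.07 and 0.01. With the GC trend removed, the glycolysis medians were -0.04 and -0.14. HK2 was below the control by the 1.5-fold rule with both siRNAs after that step too (-0.87 and -0.76). LDHA was at -0.47 and -0.63, past the rule with siRNA 2 alone. PFKL was then at 0.62 and 0.67, past the rule with both.

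**Figure D4:**
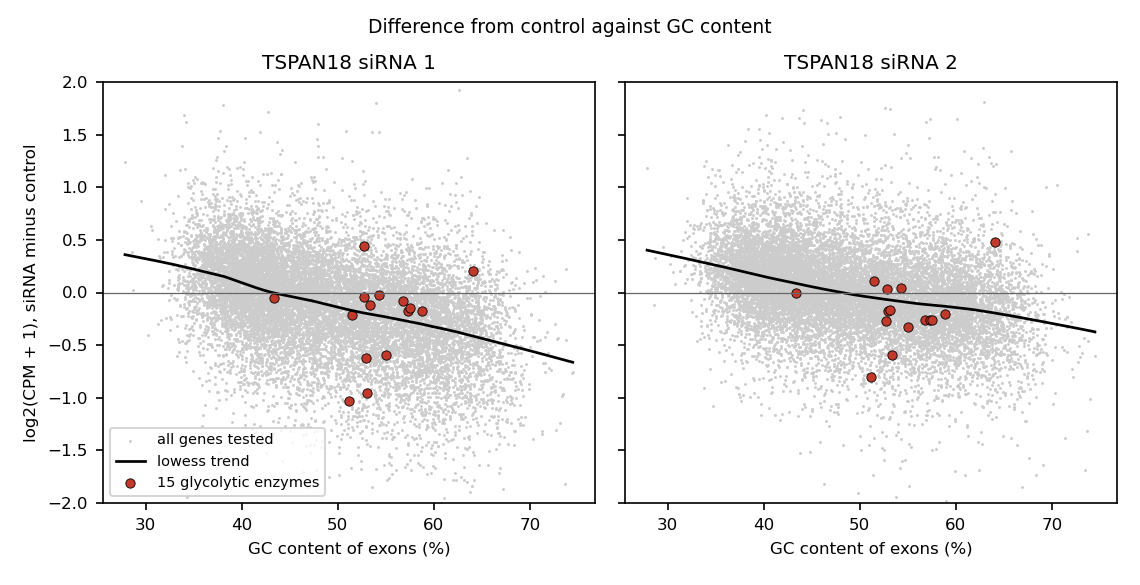
Difference from control on the log2(CPM + 1) scale against GC content for siRNA 1 (left) and siRNA 2 (right). GC is that of the longest annotated transcript of each gene. Grey points are all genes tested, the black line their lowess trend and red points the 15 glycolytic enzymes. The trend descends with GC in both libraries, more steeply with siRNA 1, and 14 of the 15 enzymes have more than 50% GC.

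In CPM, the HIF alpha subunits were both below the control. EPAS1 was at 137 CPM in control cells, 81.2 with siRNA 1 and 87.1 with siRNA 2, below the control in both, at 59.1% (56.1 to 62.1) and 63.4% (60.3 to 66.6) of it. The log2 differences were -0.75 and -0.65. HIF1A was at 350, 321 and 291 CPM, at 91.8% and 83.0% of control. Under median-of-ratios scaling HIF1A was at -0.0092 with siRNA 1, level with the control, and at -0.28 with siRNA 2. EPAS1 was then at -0.64 and -0.66. With the GC trend removed, EPAS1 was at -0.56 and -0.59, short of the rule with siRNA 1, and HIF1A at -0.32 and -0.50. The HIF1A to EPAS1 read ratio was 2.55 (2.46 to 2.64) in control cells, 3.96 (3.79 to 4.14) with siRNA 1 and 3.34 (3.19 to 3.49) with siRNA 2. On the log2 scale this ratio was higher by 0.64 and 0.39, and with the GC trend removed by 0.24 and 0.09. HIF-α is regulated mainly through protein stability, which these libraries do not measure. The hydroxylase EGLN1 (PHD2), the main oxygen sensor, was at 150, 150 and 157 CPM, at 100% of control (95.9 to 104) with siRNA 1. EGLN3 (PHD3), itself a HIF target, was at 5.89, 2.47 and 6.72 CPM. EGLN3 was low with siRNA 1 alone, at 42.0% of control (31.6 to 55.4); with a pseudocount of 5 its log2 difference of -0.99 was -0.54, short of the rule.

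The other hypoxia-inducible genes went in different directions. VEGFA, the angiogenic growth factor, was at 289, 232 and 291 CPM, and CA12, a membrane carbonic anhydrase, at 4.69, 2.44 and 4.27 CPM. Both were lowest with siRNA 1, and CA12 passed the rule there (-0.73), though not with a pseudocount of 5 (-0.38) or with the GC trend removed (-0.58). NDRG1, a stress-responsive gene strongly induced by hypoxia, was at 57.9, 44.8 and 103 CPM. NDRG1 lay on opposite sides of the control, at 77.4% with siRNA 1 and 177% (167 to 188) with siRNA 2.

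BNIP3 and BNIP3L, receptors for mitophagy, the removal of mitochondria, did not go together. BNIP3 was at 129, 116 and 134 CPM and BNIP3L at 110, 197 and 141 CPM. BNIP3L was above the control in both siRNA libraries, at 180% (172 to 188) and 129% (123 to 135), and passed the rule with siRNA 1. The BNIP3L to BNIP3 read ratio was 0.847 in control cells, 1.69 with siRNA 1 and 1.05 with siRNA 2. The log2 difference of this ratio with siRNA 2, 0.31, was 0.09 with the GC trend removed, and that with siRNA 1 was 0.70. KDM3A, a histone demethylase, was likewise higher in both, at 50.04, 77.1 and 64.1 CPM, with log2 differences of 0.61 and 0.35. The first, past the rule, was 0.58 with a pseudocount of 5, short of it.

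The collagen prolyl hydroxylase subunits P4HA1 (47.2, 52.1 and 55.9 CPM) and P4HA2 (56.3, 46.6 and 57.0 CPM) stayed inside the rule. ADM, the vasodilator adrenomedullin, was at 0.998, 1.5 and 1.34 CPM, and ANKRD37, an ankyrin-repeat gene, at 0.665, 0.535 and 0.907 CPM, not tested and with 35.2% of its exonic length shared with UFSP2. Counting intervals of ADM include its control level with both siRNAs. MXI1, an antagonist of MYC, was at 13.5, 9.56 and 4.03 CPM. It was lowest with siRNA 2, at 29.8% of control (24.1 to 36.7), the largest difference of any tested member, and at 70.8% with siRNA 1. Over the 14 tested members of this family the median was -0.21 with siRNA 1 and 0.06 with siRNA 2, with 4 (28.6%) lower and 5 (35.7%) higher than control with both, against 37.7% and 29.3% of all genes.

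**Figure D5:**
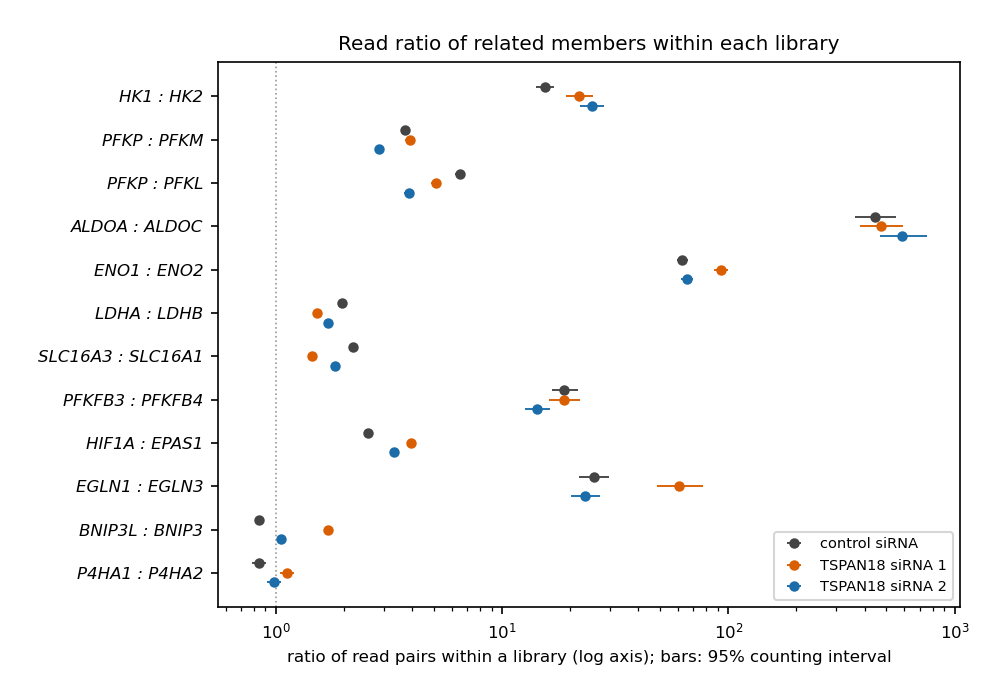
Read-pair ratio of related members within each library, on a log axis, with 95% counting intervals; a ratio within a library needs no scaling between libraries. HK1 to HK2 and HIF1A to EPAS1 are higher, and LDHA to LDHB, PFKP to PFKL and SLC16A3 to SLC16A1 lower, in both siRNA libraries than in the control, though with the GC trend removed the HIF1A to EPAS1 and SLC16A3 to SLC16A1 differences with siRNA 2 were 0.09 and -0.0048 on the log2 scale.

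The siRNAs were also set against each other. With siRNA 2, 5 members (GPI, NDRG1, EGLN3, CA12 and PFKFB4) were at least 1.5-fold higher than with siRNA 1, against 13.0% of all genes, and 2 (SLC2A1 and MXI1) were lower, against 3.74%. NDRG1 with siRNA 2 was at 229% (215 to 245) of its siRNA 1 level and EGLN3 at 272% (207 to 360), while SLC2A1 was at 49.8% (47.9 to 51.7) and MXI1 at 42.2% (33.8 to 52.4). Some of these calls depend on scaling. Under median-of-ratios scaling CA12 (-0.64 with siRNA 1, -0.12 with siRNA 2) and PFKFB4 (-0.36, 0.18) fell short of the rule. PKM (-0.0028, -0.60) and BNIP3L (0.96, 0.35) then passed it as lower with siRNA 2. With the GC trend removed, CA12 (-0.58, -0.079) and PFKFB4 (-0.20, 0.30) were also short of it, and PKM (0.087, -0.52) passed.

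Sequences of the siRNAs were not given in the sources used here. An siRNA can lower transcripts whose 3′ UTR matches its seed, so 7-base words in 3′ UTRs were ranked by a score. It was the mean difference between the siRNAs over the genes with a word, weighted by the square root of their number. Common words are thus favoured. The top word was TCACCAA for siRNA 1 (1366 genes, 11.2% of those with a 3′ UTR) and TGGGTCA for siRNA 2 (1444 genes, 11.8%). The median log2 difference of siRNA 2 from siRNA 1 was 0.23 with TCACCAA and 0.10 without it. For TGGGTCA it was 0.0047 with the word and 0.12 without it. The words were chosen on these values, so the values behind them support nothing. The sites of the members that were lowest with the matching siRNA are printed, from GENCODE 29 (GRCh38), each as 30 bases with the word in capitals.
HK2 3′ UTR, chr2:74892220-74892249, plus strand: gataaaggaagTCACCAAaatttctttttt
EPAS1 3′ UTR, chr2:46384788-46384817, plus strand: acttgcccaggTCACCAAgcagtggccttt
GPI 3′ UTR, chr19:34400521-34400550, plus strand: cttggcctgtgTCACCAAatcccaagactg
MXI1 3′ UTR, chr10:110285806-110285835, plus strand: ctttgtctgcgTGGGTCAgaagagttgtgc
TCACCAA was in 5 of 37 members (13.5%; GPI, EPAS1, TPI1, HK2 and EGLN1) and TGGGTCA in 3 (8.11%; MXI1, PFKFB4 and PDK1). Both members that were lower with both siRNAs, HK2 and EPAS1, hold the siRNA 1 word, and neither holds the siRNA 2 word. TPI1 and EGLN1 hold the siRNA 1 word at 88.5% and 100% of control, and PDK1 and PFKFB4 hold the siRNA 2 word at 141% and 116%. Whether these sites have a part in any level was not tested.

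Further genes of the same pathways were taken from wider lists. Of 23 tested further genes of sugar uptake and pyruvate handling, 2 were at least 1.5-fold higher with both siRNAs, against 1.96% of all genes, the hexokinase-domain gene HKDC1 (4.29, 7.15 and 11.1 CPM) and the pyruvate dehydrogenase kinase PDK4 (2.93, 5.35 and 5.07 CPM), and 1 was lower, against 3.46%, the transporter SLC2A6 (66.4, 38.9 and 43.8 CPM). The phosphatase PDP1, which opposes the PDK kinases, was at 32.5, 52.6 and 47.0 CPM, higher in both. The transporter SLC2A8 was at 24.8, 16.5 and 16.5 CPM and the mitochondrial pyruvate carrier MPC1 at 2.40, 1.10 and 1.38 CPM, lower in both.

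Of 13 tested further HIF pathway components, SIAH1, a ubiquitin ligase for EGLN proteins, was higher by the rule with both siRNAs (5.46, 10.4 and 8.73 CPM), against 1.96% of all genes, and none was lower, against 3.46%. VHL, which marks hydroxylated HIF-α for destruction, was at 57.7, 76.9 and 70.0 CPM and its complex partner CUL2 at 79.7, 84.2 and 84.3 CPM. ELOB, also of that complex, was at 73.0, 53.1 and 57.7 CPM, the HIF partner ARNT2 at 18.5, 13.6 and 8.37 CPM, and the asparaginyl hydroxylase HIF1AN at 130, 122 and 88.2 CPM.

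Of 31 tested further hypoxia-inducible genes, the oxidoreductase ERO1A was higher by the rule with both (63.2, 111 and 111 CPM) and the secreted hormone STC1 lower (78.9, 33.1 and 50.7 CPM). Each is 3.23% of the list, against 1.96% and 3.46% of all genes. The mTOR inhibitor DDIT4 (25.8, 45.8 and 36.8 CPM) and the sterol regulator INSIG2 (11.3, 15.7 and 20.3 CPM) were above the control in both, and RAB20 (4.06, 2.17 and 2.89 CPM) and the lysyl oxidase LOXL2 (472, 378 and 334 CPM) below it. The median over the 31 was -0.04 with siRNA 1 and -0.02 with siRNA 2. None of 7 pentose phosphate genes passed the rule with both, against 1.96% of all genes higher and 3.46% lower, so a count of 0 in so short a list says little. In that pathway the dehydrogenase PGD was at 225, 168 and 191 CPM, lower in both libraries, and the epimerase RPE at 40.9, 59.2 and 41.8 CPM. Of these wider-list genes, DDIT4, SIAH1, RPE and ELOB share 41.2%, 31.2%, 23.8% and 16.8% of their exonic length with other genes, so their counts are uncertain.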

How the data were processed

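The deposited tables give 1 value per gene and library in CPM, as normalised by the authors. The genome build hg19, HTSeq 0.6.1, HISAT2 2.1.0 and bcl2fastq 2.19.1 were used, per the submitters' processing notes. Annotation release and strand setting: not given in the sources used here. CPM values were whole reads in each library (100% within a tolerance of 0.001), with 29766559 to 30058731 recovered pairs. A count of 0 would allow up to 3 pairs, or 0.0998 to 0.101 CPM, and intervals and floors cover counting error only.

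A mean of 1 CPM or more was required (14185 genes), and tests were run on log2(CPM + 1) with limma 3.58.1, using a design of 2 siTSPAN18 libraries and 1 control; edgeR 4.0.16 and DESeq2 1.42.0 on recovered pairs were alternatives. Tests were run on simulated data with the same large change in both siRNA libraries. That check required only that most signs came out right, so it does not give the power or false calls here. Intervals are exact Poisson or Clopper-Pearson at 95%. GC, exonic length and overlap come from GENCODE 29 (GRCh38), whose GC was matched for 99.8% of tested genes. GC is that of a gene's longest annotated transcript, not of its merged exons.

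All members are named, and of each wider list up to 3 highest and 3 lowest genes with the same sign with both siRNAs. Some genes that the rule takes are not reported here. Members and lists were chosen with earlier results of these data known. Pseudogene rows of 6 members held at most 4.14% of the parent's level.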

Additional observations from a re-analysis of the deposited data

How the results depend on the processing

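No paired analysis was possible, because there was 1 control library and 1 library per siRNA. The numbers 1 and 2 in the siTSPAN18 labels name siRNAs, not replicates. The counts of members past the rule with both siRNAs (0 higher, 2 lower) did not differ with a pseudocount of 0.1 or 5, median-of-ratios scaling, no filter on low values, or without members that share exonic length. With the GC trend removed they were 1 (PFKL) and 1 (HK2). A 2-fold rule gave 0 lower, a looser rule (125% of control or its inverse) 2 higher and 6 lower, and one siRNA alone 1 to 2 higher and 5 to 7 lower. Without members that hold a heptamer, an alternative chosen after seeing the data, 0 were lower; fewer members enter by construction. Against siRNA 1, siRNA 2 had 3 members higher with a pseudocount of 5, 3 higher and 4 lower with median-of-ratios scaling, 2 higher by a 2-fold rule, and 9 higher and 5 lower by the looser rule, instead of 5 and 2. The count between the siRNAs was not among those taken with the GC trend removed.

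The glycolysis median over both siRNAs was -0.21, -0.15 with median-of-ratios scaling and -0.026 with the GC trend removed, and -0.20 to -0.15 with one siRNA alone. For siRNA 1 it was -0.15, -0.031 with median-of-ratios scaling, -0.042 with the GC trend removed and -0.24 as a mean; for siRNA 2 it was -0.20, and -0.14 with the GC trend removed. The hypoxia median over both siRNAs was -0.087, 0.0041 with the GC trend removed, and -0.21 to 0.058 with one siRNA alone. For siRNA 1 it was -0.21, and -0.097 with median-of-ratios scaling. For siRNA 2 it was 0.058, and -0.018 as a mean. Each shift was less than the spread between siRNAs, but that spread is wide here, and the sign differed between settings. Limma called 1 gene with median-of-ratios scaling and DESeq2 called 14, instead of 0; no member was called under any alternative run. With both siRNAs, the rule took 278 genes as higher and 491 as lower; with the GC trend removed it took 303 and 283; the cause was not tested. With 1 library per siRNA, counting error is wide for SLC2A3 and ANKRD37, which were not tested, and for ADM, ALDOC, CA12 and EGLN3.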
